A study of Mus musculus with 4 samples.

Results

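Of 163967 autosomal regions called as accessible in at least 1 of 4 libraries of fibro/adipogenic progenitors (FAPs), 10977 were called in the young control library alone. They were selected on the authors' region calls: the deposited regions of the 4 libraries were merged wherever they touched or overlapped, and the set consists of each autosomal merged region that held a region of the young control list and none of the other lists. The cells came from hind limb muscles of C57BL/6 mdx mice, so every library, controls included, carries the dystrophin mutation. Young and old mice were each given TSA or saline, which makes 4 groups with 1 library each. TSA (trichostatin A) mice had received 0.5 mg per kg per day by intraperitoneal injection for 15 days, and control mice saline alone over the same 15 days, per the treatment protocol. The treatment label of the control samples reads none. The labels do not give the ages beyond young and old, the sex, or how many animals went into a library. FAPs were sorted on Sca-1, with cells bearing the blood markers Ter119 and CD45, the endothelial marker CD31 or the satellite cell marker α7 integrin removed. Marker genes could not be looked up, since the regions are in build mm9 and the gene table at hand is in GRCm38, so the labelled cell type was not checked here.

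FAPs are mesenchymal cells of the muscle interstitium that help satellite cells rebuild fibres after injury and that can turn into fibroblasts or fat cells when regeneration fails. Histone deacetylases remove acetyl groups from histone tails, which is associated with compact chromatin, and TSA blocks many of these enzymes. In NA-seq a restriction enzyme is let into intact nuclei and cuts where its short recognition site is exposed, so that the sequenced ends mark open chromatin such as promoters and enhancers.

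A region here is an interval with a chromosome, a start and an end, on a grid of 100 bp and at least 1000 bp wide. The lists hold no count, score or height. The depth of the libraries is therefore unknown, and absence from a list shows the lack of a call, not closed chromatin. With 1 library per group no test between groups was possible and none is given. Intervals in brackets are 95% exact binomial (Clopper-Pearson) intervals, or order-statistic intervals for medians. They reflect counting error alone, with each region taken as independent.

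The unique regions were 26.0% (25.6 to 26.5%) of the 42159 autosomal merged regions that held a young control call, and they covered 15.0 of the 67.2 Mb in that list. Each of the 10977 was a single deposited region. This follows from the rule, since no 2 regions of the young control list touched or overlapped each other. When regions narrower than the median of their own list were removed beforehand, 6866 were unique. That median was 1500 bp in the young control list and 1800 bp in each other list. The larger part of the young control map was shared. Of its merged regions, 34.8% were called in all 4 libraries, 19.8% in 3 and 19.4% in 2. The other libraries had unique regions as well, 18280 in young TSA (23.5% of its merged regions), 32787 in old control (35.0%) and 23577 in old TSA (28.0%). The young control thus had the fewest unique regions of the 4 and the shortest list, with 43335 deposited regions against 80122 to 97139. The share depends on which lists a region is held against. With young TSA as the only other list, 43.0% (42.5 to 43.5%) of the young control regions were unmatched. Against the old control alone it was 48.4%, and against old TSA alone 47.5%.

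Since the set was chosen by these calls, the edge of the rule is described first. At the outer edge, 205 unique regions (1.87%) ended 100 bp from a region of another library, the smallest gap the grid allows. On the other side, 136 young control regions touched a region of another library without overlapping it, and 150 overlapped by 100 bp at most. The median width was 1300 bp for those with a 100 bp gap, 1200 bp for those that touched and 1300 bp for those that overlapped by 100 bp. Gaps of 100 to 500 bp were found for 9.34% (8.80 to 9.90%) of the unique regions, gaps of 600 to 1000 bp for 8.66% and gaps of 1100 to 1500 bp for 7.25%. The share was highest for gaps of 100 to 500 bp. It fell in most steps from bin to bin, down to 3.76% for gaps of 4100 to 4500 bp and 3.02% for 4600 to 5000 bp. Such bins cannot tell near misses from ordinary spacing, and this was not tested. For 43.3% of the unique regions the nearest region of another library lay more than 5000 bp away.

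Unique regions of the young control were narrow. Their median width was 1300 bp, with quartiles of 1100 and 1600 bp, against 1600 bp (1200 to 1900 bp) for the 31927 deposited young control regions that were shared. The most frequent width among the unique regions was 1000 bp, the minimum of the list, with 2532 regions or 23.1%. Among the shared regions 11.9% had that width, and the most frequent width was 1900 bp with 26.7%. A second peak at 1900 bp was present among the unique regions too, with 1509 regions or 13.7%. Only 131 of them (1.19%) were wider than 1900 bp, against 11.4% of the shared regions. Width rose with the number of libraries, with medians of 1400 bp for young control regions called in 2 libraries, 1500 bp in 3 and 1800 bp in all 4.

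**Figure D1:**
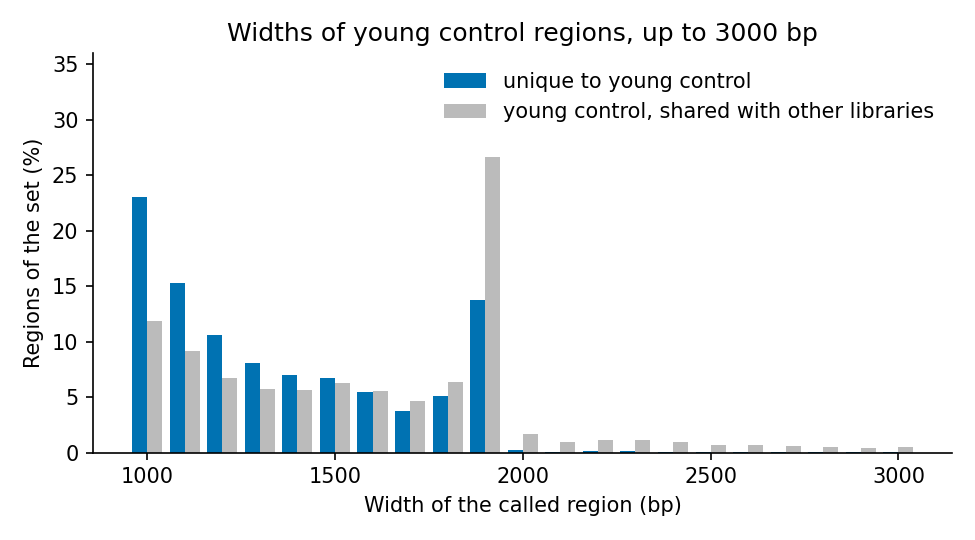
Widths of young control regions in steps of 100 bp, as a percentage of the 10977 unique regions (blue) and of the 31927 shared regions (grey); wider regions, up to 4400 bp and 44500 bp, are off the axis. The unique regions peak at 1000 bp (23.1%) with a second peak at 1900 bp (13.7%), and the shared regions peak at 1900 bp (26.7%).

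Read the other way, the unique share fell with width. Of the 6329 young control regions of 1000 bp, 40.0% (38.8 to 41.2%) were unique. The share was 35.1% at 1100 to 1300 bp, 25.3% at 1400 to 1800 bp and 15.1% (14.4 to 15.8%) at 1900 bp. It was 3.96% (3.13 to 4.93%) at 2000 to 2400 bp and 2.98% (2.25 to 3.86%) at 2500 bp and over. A narrow region meets another list less easily than a wide one, so part of this slope is built into the rule. How much of it was not tested. The same slope was present in the other libraries, from 45.3% to 3.54% in young TSA, from 59.3% to 7.90% in old control and from 51.1% to 4.43% in old TSA. At 1000 bp the young control had the lowest unique share of the 4 libraries. Its regions were held against the longer lists of the other libraries, and the part of list length was not tested.

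**Figure D2:**
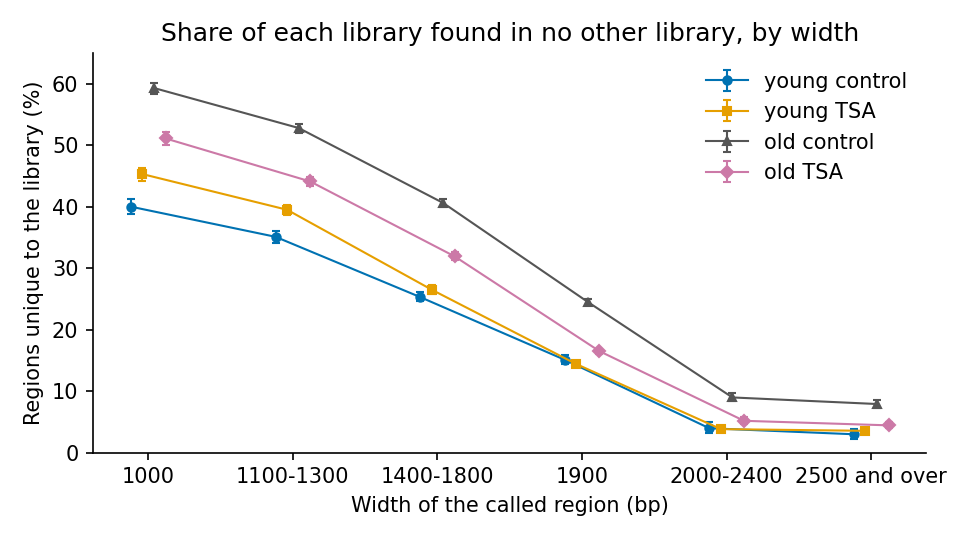
Share of the deposited regions of each library found in no other library, by width class, with 95% exact binomial intervals as bars. All 4 libraries fall with width, and the young control falls from 40.0% at 1000 bp to 2.98% at 2500 bp and over.

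The median width of the unique regions was 1300 bp in young TSA, 1400 bp in old control and 1300 bp in old TSA, against 1300 bp in the young control. The upper part of the range differed more. The peak at 1900 bp held 13.7% of the unique set of the young control, against 19.5% for young TSA, 23.4% for old control and 18.6% for old TSA. The whole lists differed in the same direction, with 23.4% of the young control list at 1900 bp against 30.9 to 32.9% of the other lists. In the old control, 1900 bp was the most frequent unique width, while in the other 3 libraries it was 1000 bp. Regions wider than 1900 bp made up 1.19% of its unique set, against 2.83% in young TSA, 3.88% in old control and 2.66% in old TSA. The young control list as a whole also held fewer such regions, with 8.78% against 15.3 to 17.8% in the other lists.

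The 5 widest unique regions lay on chromosomes 4, 7, 12, 10 and 1. The widest, chr4:55360601-55365000 in mm9, spanned 4400 bp. Its nearest neighbour of another library, an old control region, was 11.8 kb away, and the nearest region called in all 4 libraries 132 kb. The region chr7:20284101-20287700 (3600 bp) stopped 100 bp short of a region called in the old control alone. The region chr12:16850701-16854300 (3600 bp) lay 0.700 kb from a region of 3800 bp that all 4 libraries shared. For chr10:66463201-66466700 (3500 bp) the nearest other call, from the old control, was 2.30 kb away. For chr1:173340501-173343800 (3300 bp) it was a young TSA region of the same width at 0.700 kb. None of the 5 was in the authors' list of regions higher in young control than in young TSA. Their surroundings thus ranged from the edge of a region called everywhere to a stretch with no other call within 10 kb.

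The median distance from a unique region, edge to edge, to the nearest region called in 2 or more libraries was 8.70 kb (8.40 to 9 kb). Of the unique regions, 10.3% had such a shared region within 1 kb, 35.5% within 5 kb, 54.4% (53.4 to 55.3%) within 10 kb and 91.1% within 50 kb. Shared young control regions lay closer to other shared regions, with a median of 6.70 kb for those called in 2 libraries, 5.50 kb in 3 and 4.40 kb in all 4. The corresponding shares within 10 kb were 61.8%, 67.8% and 73.7%. The share of 54.4% depends on the definitions: it was 48.6% between centres, 39.7% without the regions narrower than the median of their own list, and 30.9% when the shared region had to be called in the young control itself. To the lists of single libraries, the median distance was 8.80 kb (8.60 to 9.10 kb) for young TSA, 7.50 kb (7.20 to 7.70 kb) for old control and 8.50 kb (8.30 to 8.80 kb) for old TSA. The old control, the longest list, was the closest of the 3 for 32.0% of the unique regions, young TSA for 23.7% and old TSA for 23.4%, with ties in 20.9%.

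Regions called in all 4 libraries, referred to below as called everywhere, gave a target that is the same for the unique regions of every library. From the unique regions of the young control, the median distance to the nearest of these 14668 regions was 54.4 kb (52.7 to 56.4 kb), with quartiles of 18.4 and 158 kb. Without the regions narrower than the median of their own list it was 92.2 kb (87.7 to 96.5 kb). Young control regions called in 2 libraries stood at 40.0 kb (38.4 to 41.5 kb) and those called in 3 at 33.1 kb (31.8 to 34.4 kb). Regions called in all 4 were 23.2 kb from the next of their kind. In the young control the distance therefore grew as fewer libraries shared a region. Taken within single autosomes, the median of the unique regions exceeded that of the regions called in 2 or 3 libraries on 18 of 19 autosomes, chromosome 13 being the exception.

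The difference was also present among regions of equal width. At 1000 bp the median distance was 61.3 kb (57.8 to 67.9 kb) for 2532 unique regions and 41.3 kb (38.9 to 44.7 kb) for 2505 regions called in 2 or 3 libraries. At 1900 bp it was 49.4 kb (45.6 to 53.8 kb) against 32.6 kb (31.0 to 34.5 kb). The intervals stayed apart in the classes up to 2400 bp, down to the 76 unique regions of 2000 to 2400 bp (46.5 kb, 34.5 to 78.7 kb, against 28.3 kb, 23.7 to 33.2 kb). The same held for the 55 of 2500 bp and over, where 50.4 kb (33.2 to 132 kb) stood against 24.6 kb (20.8 to 30.3 kb).

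Among the unique sets of the 4 libraries, the young ones lay closer to the regions called everywhere. The median was 41.9 kb (40.6 to 43.0 kb) for young TSA, 54.4 kb for young control, 64.3 kb (62.5 to 65.7 kb) for old TSA and 72.1 kb (70.6 to 73.8 kb) for old control. These 4 intervals did not overlap, but they reflect counting error within a library alone. Within autosomes, the unique regions of the young control lay farther from such regions than those of young TSA on 18 of 19 autosomes, farther than those of old TSA on 1 and farther than those of old control on 0. Autosomes are parts of the same libraries and not replicates, and age and library cannot be told apart here.

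**Figure D3:**
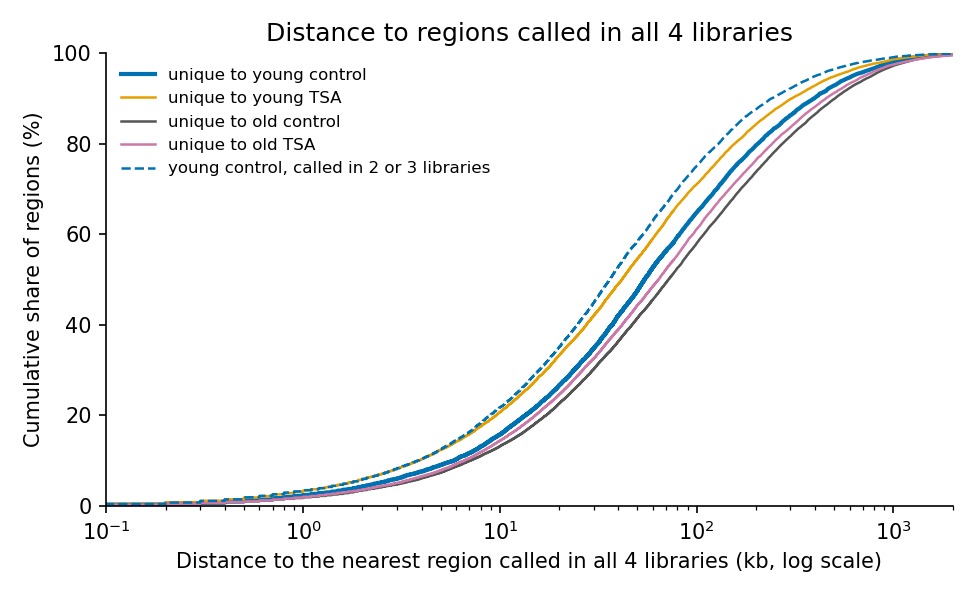
Cumulative share of regions by distance to the nearest region called in all 4 libraries, on a log axis in kb. The curve for regions unique to the young control (thick blue, median 54.4 kb) lies between those of young TSA (41.9 kb) and of the 2 old libraries (64.3 and 72.1 kb), and to the right of the young control regions called in 2 or 3 libraries (dashed, 36.2 kb).

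The regions next to a unique region on either side of it in the merged map had nearly the make-up of the whole map. Of 21954 neighbours, 45.2% (44.5 to 45.8%) were called in 2 or more libraries, against 47.8% of all merged regions. Neighbours called in all 4 libraries were 8.40% against 8.95%. Regions unique to old control made up 20.4% against 20.0%, those unique to young TSA 11.5% against 11.1% and those unique to old TSA 14.3% against 14.4%. Other unique regions of the young control were 8.75% (8.38 to 9.14%) of the neighbours and 6.69% of the map. An adjoining pair of such regions enters from both sides, so these neighbours are not independent and the interval is too narrow. Unique regions of the other libraries also had neighbours of their own kind above the share in the map, with 12.0% against 11.1% in young TSA, 22.7% against 20.0% in old control and 15.4% against 14.4% in old TSA.

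Runs of unique regions with no other call between them were short. Of the 10977 regions, 83.5% stood alone, 13.6% were in pairs and 2.32% in runs of 3. There were 12 runs of 4 and 2 runs of 5. The runs of 5 were chr2:90781401-90825400, which spanned 44.0 kb, and chr14:116850701-116985700, which spanned 135 kb. The first of the runs of 4 by position rule, chr3:107505601-107537300, spanned 31.7 kb. The median distance from a unique region to the next unique region of the young control was 60.5 kb (59.0 to 62.5 kb), and 44.1% had another within 50 kb. That share follows the number of regions in each set, and was 63.7% for young TSA, 77.0% for old control and 66.8% for old TSA. To any other region of the young control, unique or shared, the median distance was 14.8 kb.

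A few unique regions stood far from every call of another library. For 124 of them (1.13%, 0.940 to 1.35%) no other library had a region within 50 kb, against 0.673% of the regions unique to young TSA, 1.70% of those unique to old TSA and 2.97% of those unique to old control. The lists searched differ between these sets, and those searched for the young control were the longest. The most isolated, chr3:93679301-93680300, had the minimum width of 1000 bp. The nearest call of another library was 217 kb away in young TSA, and the next young control region 266 kb. The region chr19:9529301-9530300, also 1000 bp wide, was 164 kb from the nearest other call, in old TSA. For chr13:66265701-66266700 the first call in each of the other 3 libraries was the same region at 142 kb, called in all 4. The region chr5:10646401-10647500 (1100 bp) was 123 kb from an old TSA region but 27.8 kb from another unique region of the young control. The region chr4:85568901-85569900 (1000 bp) was 114 kb from old TSA. These 5 were thus at or within 100 bp of the minimum width. Of all 124 isolated regions, 24.2% had the minimum width, close to the 23.1% of the whole unique set.

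At the other extreme, the 205 regions with a gap of 100 bp adjoined regions of every kind. The adjoining region was called in 1 library in 43.9% of cases, in 2 in 27.8%, in 3 in 15.6% and in all 4 in 12.7%. The first 5 by position lay on chromosome 1. The regions chr1:13235301-13236600 and chr1:34525901-34527700 adjoined regions called in old TSA alone, of 1000 and 1900 bp. The region chr1:13694701-13695700 adjoined a region of 1900 bp that the other 3 libraries shared. The region chr1:37935901-37937200 adjoined a region called in young control and old control, and chr1:72648601-72650500 a region of old control alone. In 1 of these 5 cases, then, a region absent from the young control itself was shared by every other library beside the young control call.

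The density of unique regions was compared across 2407 windows of 1 Mb, which held 10948 of them by their midpoints (the last window of each chromosome, which is cut short, was left out). A window held 4.55 unique regions on average and 19 at most, and 143 windows (5.94%) held none. Windows without any region called in all 4 libraries held 2.21 unique regions of the young control per Mb. The mean rose to 3.41 in windows with 1 to 2 such regions, 4.65 with 3 to 5 and 5.94 with 6 to 10. It then stayed level, at 6.16 with 11 to 20 and 6.08 with 21 and over. The unique regions of young TSA rose from 2.74 to 16.82 per Mb over the same classes, with no level part. Those of old control went from 9.45 to 16.74 and those of old TSA from 5.95 to 13.31, and both were nearly level over the last 2 classes. In windows without a region called everywhere, the young sets were thus alike in density (2.21 and 2.74 per Mb), and in the richest 102 windows they stood at 6.08 and 16.82 per Mb.

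**Figure D4:**
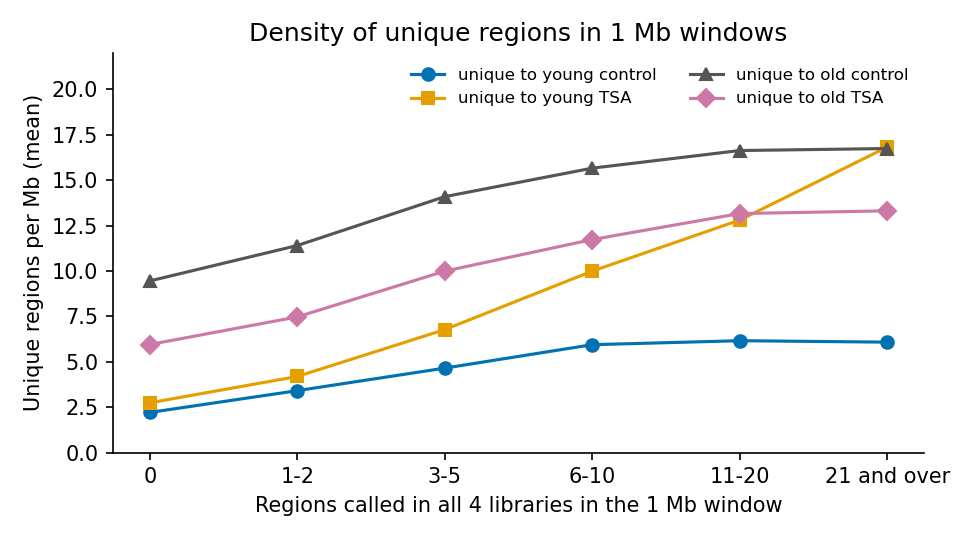
Mean number of unique regions per 1 Mb window, by the number of regions in the window that all 4 libraries called; each line is the unique set of 1 library, with no replicate and so no error bar. The young control (circles) rises from 2.21 to 5.94 per Mb and then stays near 6, and young TSA (squares) rises from 2.74 to 16.82.

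As a share of the young control regions in a window class, the unique ones fell from 54.7% (52.1 to 57.3%) where no region was called everywhere to 12.9% (12.0 to 13.9%) where 21 or more were. Regions called everywhere are part of that denominator, so this fall is partly arithmetic. Over the 2407 windows, the count of unique regions correlated with that of regions called everywhere at a Pearson r of 0.38. For the unique regions of young TSA that r was 0.72, of old control 0.38 and of old TSA 0.47. Between the unique regions of the young control and those of young TSA the r was 0.45, of old control 0.24 and of old TSA 0.25. The counts in a window come from the same stretch of genome and the same merged map, and these values are descriptions. The window with the most unique regions was on chromosome 10 from 93 to 94 Mb, with 19 unique of 42 young control regions, 13 of them called everywhere. The next was on chromosome 3 from 107 to 108 Mb, with 18 of 54, which holds the run of 4 given above. The window on chromosome 16 from 44 to 45 Mb had 16 of 31, and only 4 regions called everywhere. The windows were picked for their unique regions of the young control, and the other unique sets differed between them. The chromosome 10 window held 5 regions unique to young TSA, 13 to old control and 16 to old TSA. In the chromosome 3 window these were 18, 15 and 7, and in the chromosome 16 window 9, 10 and 12. The means over all windows were 7.56, 13.58 and 9.77.

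Among the autosomes, the unique share of the young control ranged from 20.3% (18.8 to 21.9%) on chromosome 7 to 30.0% on chromosomes 14 (27.8 to 32.3%) and 16 (27.7 to 32.4%). Chromosomes 17 (22.2%), 8 (22.9%), 5 (23.7%) and 19 (23.9%) followed chromosome 7 at the low end. Chromosomes 13 (29.9%), 18 (29.0%) and 3 (28.7%) were next at the high end. Neighbours in this order had overlapping intervals, while the interval of chromosome 7 was apart from those of chromosomes 14 and 16. The ratio of the highest to the lowest share was 1.48 in the young control, against 1.21 in young TSA, 1.23 in old control and 1.24 in old TSA. The 14668 regions called everywhere enter each denominator, of 42159 merged regions in young control and 77787 to 93558 in the others. How far this widens the young control range was not tested. Over the 19 autosomes, its shares correlated with those of old control at a Pearson r of 0.79, of old TSA at 0.77 and of young TSA at 0.47. Chromosome 7 also had the lowest share in the old control (31.2%), while in both TSA libraries the lowest was chromosome 4 (21.6% and 25.4%).

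**Figure D5:**
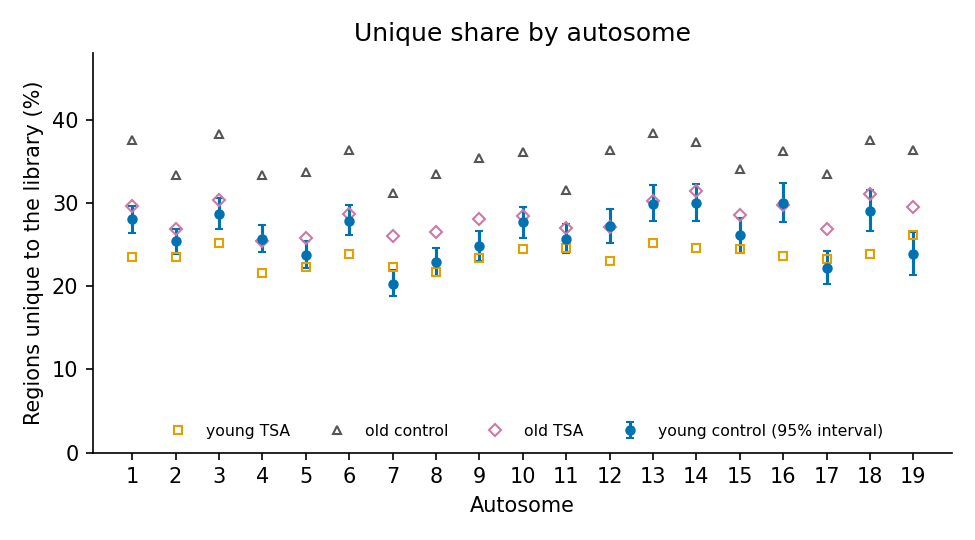
Share of the merged regions of each library that are unique to it, by autosome; filled circles are the young control with 95% exact binomial intervals, and open symbols the other libraries. The young control ranges from 20.3% on chromosome 7 to 30.0% on chromosomes 14 and 16.

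Chromosomes with more regions called everywhere had a lower unique share, with a Pearson r of -0.87 and a Spearman rho of -0.90 over 19 autosomes. Regions called everywhere enter the share's denominator. The density of unique regions itself varied by a factor of 1.54, from 3.80 per Mb on chromosome 7 to 5.85 on chromosome 11, and correlated with the density of regions called everywhere at 0.23 (rho 0.07). The median width of the unique regions was 1200 or 1300 bp on every autosome. Outside the autosomes, which the rule leaves out, 170 of 411 young control regions of chromosome X were unique. That share of 41.4% (36.6 to 46.3%) was above every autosome. Chromosome Y had 0 of 16 and the mitochondrial genome 0 of 2.

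The authors also deposited the regions they called as differing between TSA and control at each age. The list of regions higher in young control than in young TSA overlapped 288 of the 10977 unique regions, or 2.62% (2.33 to 2.94%), beside 1.07% of all 42159 young control regions. That list comes from a contrast that holds the libraries used to choose the unique regions, so the values are descriptive. Seen from the list, 288 of its 458 autosomal regions (62.9%, 58.3 to 67.3%) lay in regions unique to the young control. The other 10689 unique regions were not listed as differing from young TSA, although young TSA had no call there. The overlap was 0.844% for young control regions called in 2 libraries, 0.432% in 3 and 0.382% in all 4. By the rule, no unique region had a young TSA call. Of the regions called in 2 libraries, 3470 of 8179 had one, as did all 14668 called in all 4. Part of this fall, and of the gap between 2.62% and 1.07%, can thus come from the rule. How much was not tested. The young list of the opposite direction, which overlapped 6.30% of all young control regions, met 0 of the unique ones. Of the 8298 autosomal regions on that list, 8296 lie on young TSA calls, so this follows from the rule.

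The 288 unique regions that the authors listed as higher in young control than in young TSA were wider than the rest. Their median width was 1800 bp (1700 to 1900 bp), against 1300 bp (1200 to 1300 bp) for the other 10689, and 8.33% were at the minimum width against 23.5%. The listed share rose with width, from 0.948% (0.608 to 1.41%) at 1000 bp and 1.34% at 1100 to 1300 bp to 2.66% at 1400 to 1800 bp and 7.69% (6.39 to 9.15%) at 1900 bp. It was 18.4% (14 of 76) at 2000 to 2400 bp and 3.64% (2 of 55) at 2500 bp and over. They also lay farther from other calls. The nearest region of another library was at 5.35 kb (4.50 to 6.90 kb) for listed and 4.00 kb (3.90 to 4.10 kb) for other unique regions. To the nearest region called in all 4 libraries it was 75.1 kb (54.0 to 93.4 kb) against 54.1 kb (52.4 to 56.1 kb), with overlapping intervals.

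The differential lists of the old mice overlapped 1.75% (higher in control) and 1.98% (higher in TSA) of all young control regions. By the rule, no old library had a call in a unique region, yet 3 unique regions met these lists. They are named here because they met these lists, outside the rule for named regions. The region chr13:61720701-61722200 overlapped by 100 bp a region listed as higher in old control. The region chr10:19349501-19350600 overlapped by 300 bp, and chr18:53196301-53197400 by 100 bp, a region listed as higher in old TSA. Each listed region overlapped a call of its own library, and the nearest call of that library lay 200 to 400 bp from the unique region.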

How the data were processed

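The authors deposited 8 lists of regions, 4 of accessible regions per library and 4 of regions that differed between TSA and control at an age. Bowtie 0.12.7 and build mm9 are named per the submitters' processing notes. For the region caller and its threshold, no name is given in the sources used here. Nuclei were cut with NlaIII or HpaII, per the labels' protocols, and which enzyme served which library is not stated there.

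Groups came from the sample titles. The computing was done in Python 3.11.15 (scipy 1.17.1, pandas 2.3.3, numpy 2.4.6), and the plots in matplotlib 3.10.9. Distances run from edge to edge on a chromosome, without the region itself. Widths of shared regions are those deposited, not those of merged regions. Printed starts count from 1. The interval functions were tested on simulated data.

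The rule for unique regions, the analyses and the alternatives were chosen with earlier results of these data known. Regions named are the 5 widest, the 5 farthest from and the 5 closest to a region of another library, the 3 longest runs and the 3 richest windows, with ties broken by position. Genes, sequences and enzyme sites were not analysed here, for want of an mm9 reference. The alternatives changed how regions are merged or matched, the widths and chromosomes used, and how distance and sharing are defined.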

Additional observations from a re-analysis of the deposited data

Results flagged for a closer look

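The number of unique regions moved in opposite directions with TSA at the 2 ages. Young TSA had 18280 against 10977 in young control, a log2 ratio of 0.74, and old TSA had 23577 against 32787 in old control, a log2 ratio of -0.48. With 1 library per group, this difference was not tested. The lists differ in length in the same directions, and their part in the result was not tested. As a share of each library's merged regions, the unique regions were lower with TSA at both ages, at 23.5% against 26.0% in the young and 28.0% against 35.0% in the old mice.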

How the results depend on the processing

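No paired analysis was possible because each group has 1 library, and for the same reason no replicate could be left out. Of 48 values recomputed under other settings, 24 stayed within the counting interval (a count, within 1.5 times) and 24 did not. With regions up to 500 bp apart merged, the unique share was 24.1%, the share within 10 kb of a shared region 52.1% and the share with another unique region within 50 kb 40.5%. With a reciprocal overlap of 50% needed to count as shared, the unique share was 32.6%, and 52.7% had another unique region within 50 kb. The shared regions used as targets stayed those of the main merge. A unique region inside one of them was therefore counted as touching it. Measured so, 63.9% lay within 10 kb of a shared region, and the median distance to regions called everywhere was 42.9 kb. These 2 values are thus not comparable with the main ones. With regions narrower than the median of their own list removed, 6866 regions were unique (29.7%), with a median width of 1800 bp. Their distance to regions called everywhere was 92.2 kb, 39.7% had a shared region within 10 kb, 34.7% another unique one within 50 kb, and 3.61% overlapped the list of regions higher in young control than in young TSA. That setting removes narrow regions from every list by construction. The cut was 1500 bp in the young control list and 1800 bp in each other list. Young control regions between these widths stayed, while equally wide calls of the other lists were removed. Between centres, the distance was 56.6 kb and the share within 10 kb 48.6%. That share was 15.7% when shared meant called in all 4 libraries, 30.9% when it meant young control and another library, 35.5% within 5 kb and 91.1% within 50 kb. Within 10 kb, 12.4% had another unique region. A stricter definition of shared or a shorter distance can only lower such shares, and a longer distance can only raise them. Leaving out a list, chosen after seeing the data, raised the unique share to 34.6% without young TSA, 32.1% without old control and 31.7% without old TSA. A unique region stays unique when a list is left out, so the number of unique regions can only rise or stay equal. Values with a direction fixed in this way are among the 24 that did not stay within the interval. The order of the 4 unique sets by distance to regions called everywhere was the same with the 500 bp merge, the wider regions, the centres and chromosomes X, Y and M kept. Depth is unknown, so how far it limits the calls was not tested.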
